A study of Caenorhabditis elegans with 6 samples.

Results

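The genes described here are the numbered col genes of the nematode Caenorhabditis elegans, taken as every name of the form col-number in the count tables with 13 left out. The tables list 153 such names, so 140 remain, out of 41573 genes in all. The 13 left out are col-19, col-38, col-49, col-71, col-124, col-129, col-138, col-139, col-140, col-158, col-146, col-46 and col-169. In the test used below 9 of these 13 were higher and 4 lower in hs::lin-29. The set of 140 was thus shaped by leaving out genes that passed, strong responders among them. Every numbered col gene that fell in that test was left out of the set.

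Whole larvae of 2 strains were compared, hs::control and hs::lin-29, with 3 libraries each. Per the labels, larvae of both strains were synchronized at L1 and kept at 20 °C. A heat shock of 30 min at 37 °C was given in the L3 stage, 28 h from feeding, and RNA was prepared 1 h after it, so no library comes from animals left unheated. By its design the study uses the heat pulse to turn on LIN-29 early in one of the strains. The labels do not give the promoter, the transgene structure or what hs::control carries, nor whether the numbered trials were separate cultures, so the p-values rest on a spread among libraries that could be technical only.

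Cuticle collagens are small secreted proteins built around repeats of glycine followed by any pair of residues (Gly-X-Y). The epidermis makes them in waves before each molt, trims and cross-links them outside the cell, and assembles them into the layers of the cuticle. The family is large, and different members are used in larval, dauer and adult cuticles. LIN-29 is the zinc finger transcription factor that directs the epidermis from larval to adult fates, with an adult cuticle as one outcome. Not every numbered col gene makes a cuticle protein: col-99 encodes a collagen that spans the cell membrane. For most of the other genes named below no individual role is given here.

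Each library held between 14553652 and 17303509 counts assigned to genes, and the 140 col genes took 3.62% to 5.40% of them. The targeted gene lin-29 stood at 43.8 to 49.7 CPM (counts relative to the library's total, with TMM scaling) in hs::control, while replicates 1 to 3 of hs::lin-29 held 131, 517 and 339 CPM of it. Its log2 fold change was 2.82 (SE 0.41), and edgeR gave an adjusted p of 0.004621, which rose to 0.102 with no filter on low counts (lowest over the alternatives 8.16e-06). Marker lists for body wall muscle, neurons and germ line held no gene past the test, with 7, 7 and 8 tested. Of the markers for epidermis nhr-25 alone was called (7 tested) and of those for intestine elt-2 alone (8 tested), both higher. Over all genes tested 6.60% were called, higher or lower. The nhr-25 call (adjusted p 0.04101) was lost when any library but the first of hs::control was left out, with a range of 0.000256 to 0.132 over the alternatives. It was also lost when replicate number was fitted as a block. The regulators elt-1, elt-3 and nhr-23 of the epidermal list are listed at 0 in every library. Summed epidermal marker levels overlapped, at 1709 to 1919 CPM in hs::control and 1598 to 1776 CPM in hs::lin-29. The cuticle collagen genes rol-6 and dpy-7, with means of 693 and 308 CPM in hs::control, hold a large part of that sum. It is thus no measure of the epidermis apart from its collagens. In RNA from whole animals, a change in the number of epidermal cells and a change in RNA per cell cannot be told apart.

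Of the 140 genes, 109 had enough counts to be tested. Among these, 21 rose in hs::lin-29 and none fell, 50 were held within 2-fold and 38 were undecided. A gene was counted as risen at a Benjamini-Hochberg adjusted p under 0.05 in edgeR's quasi-likelihood test over all 13045 genes tested. It was counted as held when it missed that threshold and the 95% interval of its log2 fold change lay between -1 and 1. Over all genes tested 6.60% were called, 2.46% higher and 4.14% lower, and 72.4% were held within 2-fold, beside 19.3% and 45.9% of the tested col genes called higher and held. The median log2 fold change was 0.24 over the 109 genes and 0.01 over all genes tested. Since the 13 genes left out were all past the threshold, these counts describe the remainder and not the family. The count of 21 fell to 14 without hs::control replicate 3 and reached 30 with DESeq2. Over all genes the count called higher was 321, and it went to 135 and 420 under these alternatives.

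The absence of a called fall in this test follows from that choice of genes, since every numbered col gene that fell in it was left out. At an unadjusted p under 0.05 edgeR gave 11 lower and 35 higher, but the share over all genes was not counted, so nothing is read from these numbers. DESeq2 called 3 lower, namely col-80, col-90 and col-156, and limma-voom called none. Over all genes DESeq2 called 725 lower and limma-voom 516. Without hs::lin-29 replicate 1 edgeR called 4 lower (col-13, col-58, col-90 and col-156), and without hs::lin-29 replicate 3 it called 1 (col-80). Over all genes these fits called 528 and 337 lower. The libraries of the strains did not overlap in 46 of the 109 genes, beside 23.2% of all genes tested. In 36 of them hs::lin-29 was the higher strain (33.0%, beside 11.3% of all genes tested), and in 10 the lower (9.17%, beside 11.9%).

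To order the genes by level, CPM were divided by the length of the longest annotated transcript, which was known for all but 2 of them and had a median of 1.02 kb. In hs::control 11 genes had no count and 30 stood below 1 CPM per kb. A further 34 stood at 1 to 10 CPM per kb, 17 at 10 to 100, 35 at 100 to 1000 and 11 at 1000 or more. The 2 genes without a length, col-70 and col-182, stood at 2.99 and 49.2 CPM. The levels thus ran from no count to 4730 CPM per kb, with most of the genes either below 10 or above 100 CPM per kb.

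**Figure D1:**
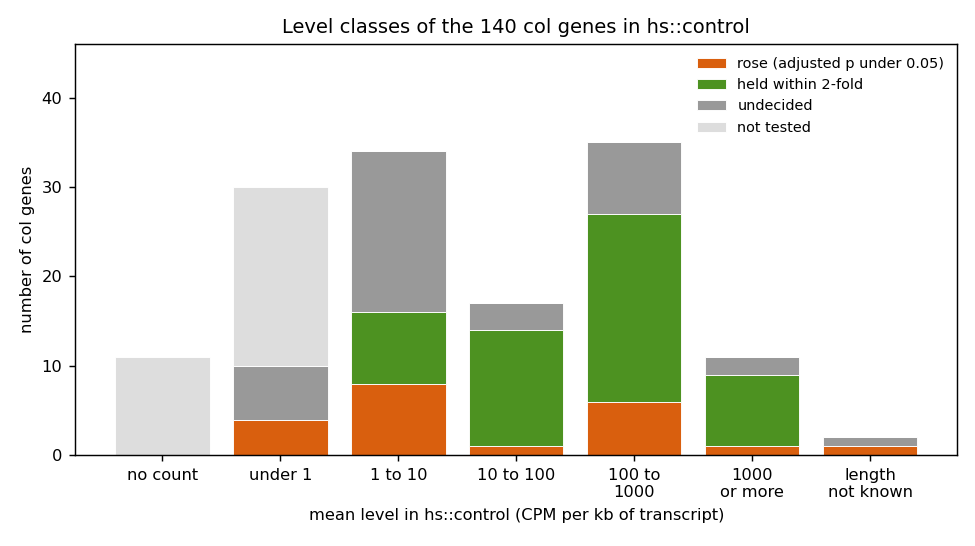
Number of the 140 col genes (y axis) in each class of mean level in hs::control (x axis, CPM per kb of transcript), split by what the gene did in hs::lin-29. All 11 genes with no count and 20 of the 30 below 1 CPM per kb were not tested, and genes that rose stand in each class from under 1 to 1000 or more, with 8 of them at 1 to 10 CPM per kb.

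The highest level per length in hs::control was that of col-125, with 4764, 4672 and 4754 CPM per kb in replicates 1 to 3 (mean 4730 ± 50.7, SD, n = 3). Its libraries lay above those of every other member. col-17, a collagen gene of larval stages that is used as a larval mark in studies of lin-29, followed at 2861 ± 605 CPM per kb and col-107 at 2726 ± 125.4 CPM per kb, and these overlapped. col-90 (2022 ± 268), col-73 (1933 ± 400) and col-39 (1770 ± 204 CPM per kb) came next, and all 3 overlapped one another. In hs::control these 6 genes made up 44.8% of the summed CPM of all 140. The other members at 1000 CPM per kb or more were col-10 (1697 ± 173), col-41 (1481 ± 384), col-160 (1124 ± 100), col-167 (1110 ± 22.4) and col-180 (1086 ± 106 CPM per kb), and the next below them, col-93, stood at 815 CPM per kb.

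These abundant genes took different courses in hs::lin-29. Of the 6, only col-73 passed edgeR's test. col-125 stood at 4451 ± 47.7 CPM in hs::control and 4237 ± 501 CPM in hs::lin-29 (log2 fold change -0.07, 95% interval -0.34 to 0.20). col-17 stood at 3784, 2461 and 3144 CPM in hs::control and 3573, 4106 and 3440 CPM in hs::lin-29. Its libraries overlapped between strains, and the log2 fold change of 0.24 had a 95% interval of -0.12 to 0.61. col-39 was held as well (0.48, interval 0.07 to 0.89). col-107 and col-90 were undecided with intervals on opposite sides of 0. col-107 stood at 2594, 2425 and 2651 CPM in hs::control and 5149, 3092 and 3510 CPM in hs::lin-29 (log2 fold change 0.62, SE 0.18, adjusted p 0.09033, range over all alternatives 0.0109 to 0.257). col-90 stood at 2611, 2011 and 2238 CPM against 1991, 1478 and 1141 CPM (-0.57, SE 0.20, adjusted p 0.1485, range 0.0236 to 0.356). In both genes the strains did not overlap.

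In hs::lin-29 the order at the top was col-125 (4502 ± 533 CPM per kb), col-107 (4176 ± 1159), col-73 (3744 ± 643), col-17 (3388 ± 322), col-39 (2471 ± 600) and col-77 (2169 ± 579). Each of these overlapped the next in its libraries, except that every library of col-17 lay above every library of col-39. col-77 entered the first 6 from position 19 in hs::control, and col-73 moved from position 5 to position 3. The plot of levels in both strains shows the risen genes far above the diagonal at low control levels and closer to it at high ones.

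**Figure D2:**
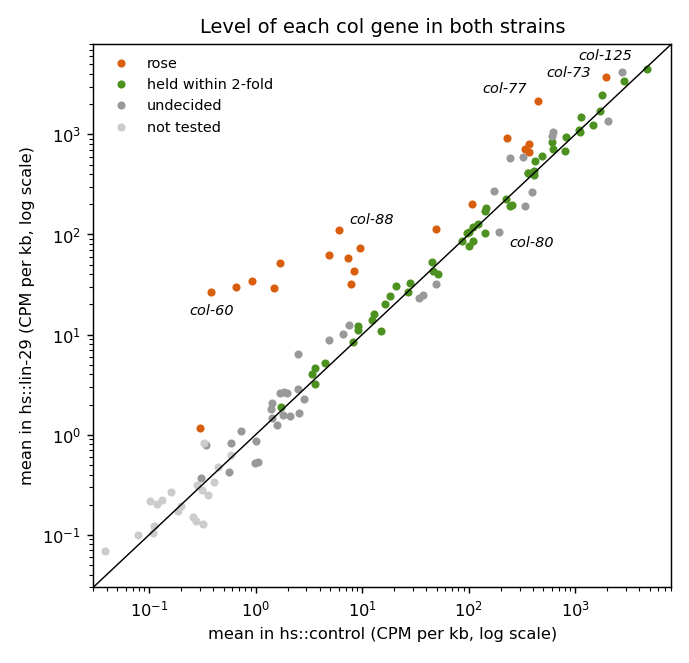
Mean level of each col gene in hs::control (x axis) and hs::lin-29 (y axis), both in CPM per kb on log scales, with the line of equal levels; genes with no count in a strain or no known length are not drawn. Risen genes lie above the line, from col-179 and col-60 below 1 CPM per kb in hs::control to col-73 at 1933, while col-125 lies close to it.

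The 21 genes that rose were split into a low and a high group at 10 CPM in hs::control. The line is a choice, with col-79 at 8.66 CPM and col-101 at 11.2 CPM close on either side of it. In 11 of them hs::control stood below 10 CPM, and these rose 3.90-fold to 70.6-fold, with a median of 18.7-fold. The other 10 were already at 11.2 to 1894 CPM in hs::control and rose 1.84-fold to 4.84-fold, with a median of 2.15-fold. A small change passes the test less easily at few counts, as with col-8 (2.51-fold, not called), so these ranges depend on the test as well. In the low group col-60, col-63, col-178 and col-179 could not pass the count filter on hs::control libraries alone. Whether they were tested thus depended on their level in hs::lin-29. The other 7 rose 5.08-fold to 30.9-fold. Across the 107 tested genes with a length, level per kb in hs::control and log2 fold change had a Spearman correlation of -0.15, beside -0.12 over all 11220 tested genes with a length, both as descriptions over genes that share the same libraries. Of the summed rise of 6144 CPM over the 21 genes, 92.3% came from the 10 genes of the high group. That share follows in part from the split by level, as no mean in the low group exceeded 102 CPM in hs::lin-29. Of all genes tested 1.40% rose at least 2-fold, 0.629% at least 4-fold and 0.207% at least 10-fold; of the 109 col genes 18, 12 and 7 did.

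col-60 had the largest fold change among the 140 with all libraries in the test. Replicates 1 to 3 of hs::control held 0.640, 0.493 and 0.168 CPM of it, and those of hs::lin-29 held 52.1, 15.1 and 23.05 CPM. The rise was 70.6-fold (log2 6.14, SE 0.61), with an adjusted p of 0.0008043 in edgeR's test. Every hs::lin-29 library was high, replicate 1 most of all, and without that replicate the log2 fold change was 5.47. col-63 stood at 1.71, 0.274 and 0.392 CPM in hs::control and 51.1, 22.1 and 35.7 CPM in hs::lin-29 (log2 fold change 5.62, SE 0.52). Its hs::control replicate 1 lay above the other 2 but far below hs::lin-29. Without it the log2 fold change of col-63 was 6.75, above that of col-60 at 6.48, so the order of the pair turned. col-178 stood at 0.356, 1.31 and 1.01 CPM against 34.9, 22.2 and 42.3 CPM (5.15, SE 0.37). In hs::control these 3 genes rested on 3 to 24 reads per library, so their fold changes are imprecise, while the levels reached in hs::lin-29 rest on 210 reads or more.

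col-81 stood at 1.78, 1.53 and 1.85 CPM in hs::control and 76.3, 23.3 and 59.6 CPM in hs::lin-29 (log2 fold change 4.95, SE 0.45). col-120, a collagen gene studied for its part in adult lifespan, stood at 1.78, 1.59 and 1.29 CPM against 43.2, 17.9 and 28.9 CPM, a rise of 19.4-fold. The hs::control libraries of both genes lay close together, and the spread was among the hs::lin-29 libraries. col-88 stood at 7.04, 5.31 and 4.14 CPM against 143, 53.5 and 109.1 CPM (18.7-fold), the highest level reached in the low group. col-20 stood at 5.41, 5.42 and 3.75 CPM against 72.6, 42.1 and 69.8 CPM (log2 fold change 3.67, SE 0.24). Adjusted p-values in edgeR's test were at most 0.000491 for these 4 genes. The order of the hs::lin-29 libraries was the same, with replicate 1 at the top and replicate 2 at the bottom.

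col-79 stood at 8.61, 9.70 and 7.66 CPM in hs::control and 55.0, 52.9 and 88.9 CPM in hs::lin-29 (7.58-fold, log2 fold change 2.92, SE 0.22). col-110 stood at 9.04, 7.72 and 5.87 CPM against 38.5, 35.5 and 104 CPM (7.90-fold, adjusted p 0.003979). The col-110 call was lost with no filter on low counts (range over all alternatives 1.71e-06 to 0.0974). In both genes hs::lin-29 replicate 3 was the high library, and without it the log2 fold change of col-110 went from 2.98 to 2.30. col-122 varied widely within both strains, at 2.56, 14.9 and 6.43 CPM against 37.6, 19.6 and 66.2 CPM (log2 fold change 2.34, SE 0.57, adjusted p 0.04575). Its hs::control replicate 2 lay close below hs::lin-29 replicate 2, and without it the log2 fold change was 3.15. The call was lost in 10 of the 14 alternatives (adjusted p over all alternatives 0.0262 to 0.384). It was lost when replicate 1 or 3 of either strain was left out. Scaling by library totals or upper quartile, both other filters, limma-voom and the replicate block lost it too. The last of the low group, col-179, stood at 0.427, 0.329 and 0.112 CPM against 1.26, 1.01 and 1.09 CPM (adjusted p 0.04525). The col-179 call was lost when any library other than hs::control replicate 1 was left out (range 0.0204 to 0.158). It was also lost with library totals and with the replicate block. Its level in hs::lin-29, 1.119 ± 0.128 CPM, stayed far below that of the other 10.

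In the high group, col-77 had the largest fold change. The hs::control libraries held 572, 389 and 415 CPM of it and the hs::lin-29 libraries 2871, 1708 and 2085 CPM (4.84-fold, SE 0.22 on the log2 scale, adjusted p 0.0006878). It added 1762 CPM, and col-73 added 1775 CPM, so that this pair made up 57.6% of the summed rise. col-73 stood at 2282, 1498 and 1902 CPM against 4395, 3350 and 3262 CPM (1.94-fold, SE 0.18 on the log2 scale). That call, at an adjusted p of 0.01461, ended when hs::control replicate 3 was left out, and p ran from 3.26e-06 to 0.0715 over the alternatives. col-176 stood at 212, 317 and 208 CPM against 914, 656 and 1403 CPM (4.03-fold, adjusted p 0.003675), and its call was lost with no filter on low counts (range 3.34e-13 to 0.0889). Each hs::lin-29 library of col-176 was more than 2-fold above the highest hs::control library.

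The other members of the high group rose by smaller factors than col-77 and col-176. col-101 went from 11.2 ± 4.85 to 45.0 ± 9.92 CPM (3.98-fold), a call also lost with no filter (adjusted p 2.12e-10 to 0.0993), and col-150 from 49.4 ± 2.82 to 114 ± 40.1 CPM (2.31-fold). Near 2-fold were col-91, from 359 ± 35.7 to 783 ± 323 CPM, col-109, from 387 ± 70.8 to 817 ± 172 CPM, and col-182, from 49.2 ± 4.45 to 103 ± 16.37 CPM. The smallest called rises were those of col-142, from 111 ± 24.0 to 208 ± 46.6 CPM, and col-48, from 337 ± 53.6 to 622 ± 185 CPM (1.84-fold). col-182 is listed as a pseudogene in the RefSeq gene table, so whether its reads come from that locus or from a similar gene cannot be told from these counts. For 4 of these genes the call was lost when 1 of several libraries was left out. These were col-91 (any library other than hs::lin-29 replicate 2), col-150 (any hs::control library), col-142 (hs::control replicates 1 or 3, hs::lin-29 replicates 1 or 3) and col-48 (hs::control replicates 2 or 3). Their adjusted p over all alternatives reached 0.322, 0.194, 0.134 and 0.142, from lows of 0.000135, 6.5e-06, 0.000193 and 0.000383. All 4 calls were also lost with no filter on low counts. With library totals those of col-91, col-142 and col-48 were lost, and with the replicate block those of col-91 and col-142.

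**Figure D3:**
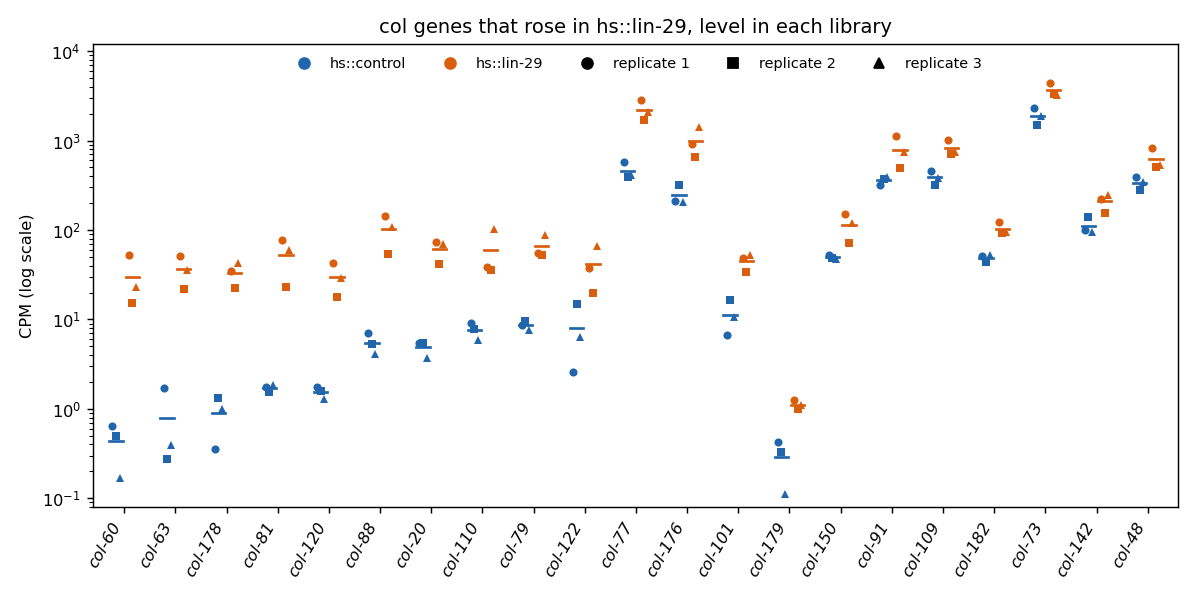
CPM on a log scale (y axis) of the 21 col genes that rose, in order of fold change (x axis), with 1 point per library, replicates 1 to 3 by symbol, and a bar at each strain's mean of 3. The genes on the left start below 10 CPM in hs::control, col-73 and col-77 reach the highest levels, and hs::lin-29 replicate 2 is the lowest of its strain in 20 of the 21.

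The libraries of hs::lin-29 differed in a shared order. Replicate 2 was the lowest of the strain in 20 of the 21 risen genes and in 55 of the 88 tested genes that did not pass (62.5%), beside 32.0% of all genes tested. Replicate 1 was the highest in 14 of the 21. The summed CPM of the risen genes was 12306, 8065 and 9888 in hs::lin-29 replicates 1 to 3, and 4485, 3475 and 3867 in hs::control. Over the 88 genes that did not pass, the sums were 40697, 31083 and 35252 CPM against 33990, 30787 and 31443 CPM, so that replicate 2 of hs::lin-29 lay within the range of hs::control and replicates 1 and 3 above it. The order of lin-29 itself was the opposite, highest in replicate 2 and lowest in replicate 1. Other lists also varied between the libraries, given here in the order of replicates 1 to 3. Furrow collagen genes, which mark an early phase of each cuticle cycle, summed to 943, 1284 and 1553 CPM for hs::lin-29 and to 1318, 1484 and 1627 CPM for hs::control. Molting genes summed to 3793, 5616 and 5285 CPM against 5384, 4315 and 5140 CPM, and heat shock genes to 19275, 27067 and 20939 CPM against 30582, 22675 and 20485 CPM. None of the 5 furrow genes tested was called, and of 19 molting genes nhr-25 alone was, beside 6.60% of all genes tested. Of 11 heat shock genes tested hsp-17 alone was called, 1.56-fold higher in hs::lin-29 (adjusted p 0.01291). That call ended when hs::control replicate 3 was left out, and p ran from 1.53e-05 to 0.0715 over the alternatives. The molting regulator nhr-23 and the furrow gene dpy-10 are listed at 0 in every library. The part of these differences in the collagen levels was not tested.

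The 50 genes held within 2-fold were mostly well expressed, with a median of 136 CPM in hs::control. Their log2 fold changes ran from -0.49 to 0.57, with 15 below 0 and 35 above. In 9 of them the 95% interval did not reach 0 although it stayed within 2-fold. The 6 with the narrowest intervals were col-125, col-167, col-153, col-144, col-131 and col-10. col-167 stood at 998, 990 and 1029 CPM in hs::control and 1014, 870 and 987 CPM in hs::lin-29 (interval -0.31 to 0.17). col-10, a collagen gene that with col-13 and col-120 has been studied in lifespan, stood at 1639 ± 167.6 and 1654 ± 131 CPM (log2 fold change 0.01, interval -0.26 to 0.28, and -0.01 with scaling by library totals). Both genes overlapped between strains throughout.

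col-144 stood at 905, 748 and 789 CPM in hs::control and 641, 698 and 744 CPM in hs::lin-29, with no overlap but a log2 fold change of only -0.23 (interval -0.49 to 0.03). col-153 stood at 36.4 ± 1.20 and 35.3 ± 4.05 CPM and col-131 at 43.7 ± 3.55 and 51.8 ± 6.66 CPM. The membrane collagen gene col-99 was among the 50 as well, at 36.1 ± 5.50 and 40.3 ± 7.60 CPM (0.16, interval -0.20 to 0.52).

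The 38 undecided genes include both changes that missed the threshold and genes with too few reads for a narrow interval. In 24 of them hs::control stood below 10 CPM. The 95% interval lay above 0 in 9 (col-8, col-69, col-92, col-103, col-104, col-107, col-114, col-133 and col-149) and below 0 in 7 (col-76, col-80, col-90, col-141, col-145, col-152 and col-156), and it held 0 in the other 22. The 6 with the largest log2 fold changes at a mean of 5 CPM or more were col-133 (1.24), col-149 (0.87), col-80 (-0.86), col-119 (0.85), col-156 (-0.81) and col-104 (0.77). col-133 stood at 353, 198 and 154 CPM in hs::control and 821, 324 and 521 CPM in hs::lin-29, with hs::control replicate 1 above hs::lin-29 replicate 2. col-104 stood at 536, 554 and 610 CPM against 1326, 694 and 888 CPM (adjusted p 0.06981). Nearest to the threshold from above was col-69, at 13.4, 9.53 and 9.84 CPM against 22.3, 15.8 and 16.3 CPM (adjusted p 0.05422), which passed without hs::control replicate 1 and under 5 other alternatives (range 0.00138 to 0.202). Without hs::lin-29 replicate 2 both col-133 and col-104 passed (ranges over all alternatives 0.0148 to 0.499 and 0.00384 to 0.292), and without hs::control replicate 2 col-119 did, at a log2 fold change of 1.45 (0.0346 to 0.612).

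Of the 6 undecided genes named above, col-80 and col-156 stood lower in hs::lin-29. col-80 stood at 184, 232 and 180 CPM in hs::control and 75.3, 96.8 and 157 CPM in hs::lin-29 (SE 0.24, adjusted p 0.07854, range 0.00485 to 0.462). col-156 stood at 371, 314 and 310 CPM against 268, 118.9 and 179.05 CPM (SE 0.25, adjusted p 0.104, range 0.00953 to 0.542). In both every hs::control library lay above every hs::lin-29 library, and both passed with DESeq2. col-80 passed without hs::lin-29 replicate 3 and col-156 without hs::lin-29 replicate 1.

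**Figure D4:**
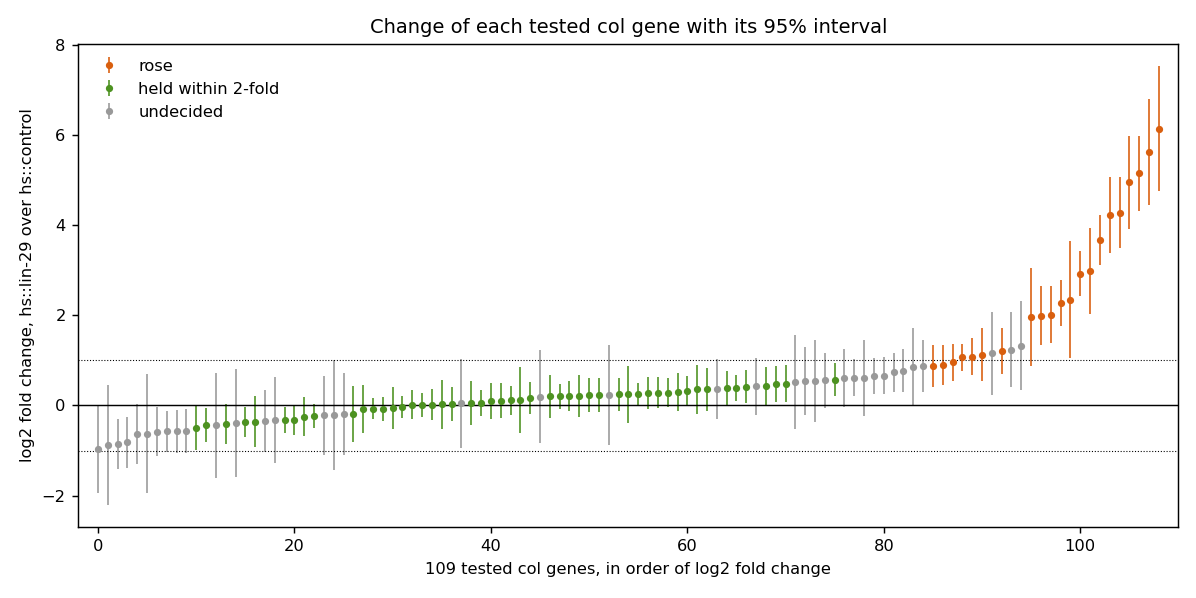
Log2 fold change of hs::lin-29 over hs::control (y axis, points) with its 95% interval (bars) for the 109 tested col genes in order of size (x axis), and dotted lines at 2-fold either way. The 21 risen genes reach 6.14, the 50 held genes stay between the dotted lines, and the lowest value is that of col-152, which was undecided, at -0.98.

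Genes with a known stage were looked up one by one. col-7, a mark of the adult cuticle, had at most 2 reads in any library of either strain and was not tested. The dauer collagen genes col-2 and col-40 were near silent, at 0.955 ± 0.678 and 2.99 ± 1.33 CPM in hs::control and 0.498 ± 0.182 and 2.41 ± 1.02 CPM in hs::lin-29, and were undecided. The log2 fold change of col-2, -0.87, was -0.19 without hs::control replicate 1. col-8 stood at 1.28, 3.94 and 1.68 CPM against 7.67, 3.31 and 6.55 CPM (log2 fold change 1.33, SE 0.44, adjusted p 0.1292). The strains overlapped in col-8, and it passed with DESeq2 and without hs::control replicate 2, there at a log2 fold change of 1.96 (range 0.0388 to 0.37).

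Genes that rose were found at every level in hs::control. Of the tested genes, 4 of 10 rose below 1 CPM per kb, 8 of 34 at 1 to 10, 1 of 17 at 10 to 100, 6 of 35 at 100 to 1000 and 1 of 11 at 1000 or more. Over all genes tested the shares called higher in these classes were 4.99%, 3.38%, 1.63%, 2.05% and 0.704%. In the lowest class a gene passes the count filter more easily when it is high in hs::lin-29: 6 col genes (col-45, col-60, col-63, col-114, col-178 and col-179) passed it through that strain, and 4 of them rose. The 31 genes not tested comprise 11 listed at 0 in every library and 20 with at most 16 reads in any library. A 0 in the tables is not taken as absence of the transcript. Reads with several alignments, or that fit more than 1 gene, are not counted for any gene. Of the 11, 3 overlap another annotated protein-coding gene. Genes of other kinds, such as nhr-23 and dpy-10, are at 0 in every library as well. The cause of the zeros was not tested.

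Several col genes lie next to each other. The annotation holds 28 pairs of neighbouring cuticle collagen genes, those left out above included, with no other protein-coding gene starting between them. A gene that starts outside a pair can still overlap it. Both genes were tested in 21 of these pairs. In 2 pairs both rose, and in 8 only 1 of the genes was called. The same counts over neighbouring genes of all kinds were not made, so nothing is read from these numbers. Of the run col-17, col-20, col-73 on the same strand, col-20 rose 12.7-fold from a low level and col-73 1.94-fold from a high one, and col-17 was held. In the run col-79, col-39, col-80, bli-1, the outer genes rose, col-79 by 7.58-fold and bli-1, a gene for the struts of the adult cuticle, by 81.4-fold from 3.44 ± 2.70 CPM. Between them col-39 was held and col-80 had a log2 fold change of -0.86. On the opposite strand the protein-coding gene dph-2, listed at 0 in every library, overlaps col-79, col-39 and col-80.

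The pair col-141 and col-142 stood at log2 fold changes of -0.57 (SE 0.21, adjusted p 0.1765) and 0.91. In the pair col-149 and col-150 the values were 0.87 and 1.21, and col-150 alone passed. col-178 and col-179 were both called higher, at 33.1 and 1.119 CPM in hs::lin-29. Both passed the count filter through that strain. The col-179 call was lost when any library other than hs::control replicate 1 was left out. The tandem pair col-13 and col-12, which encode nearly identical proteins, stood at -0.44 (SE 0.17) and 0.35 (SE 0.24), both within the 2-fold bound. Reads shared by such copies are lost in counting, so their levels are uncertain, and without hs::lin-29 replicate 1 col-13 passed the test as lower (adjusted p over all alternatives 0.0116 to 0.446). Whether the neighbours in a pair differ from each other was not tested.

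**Figure D5:**
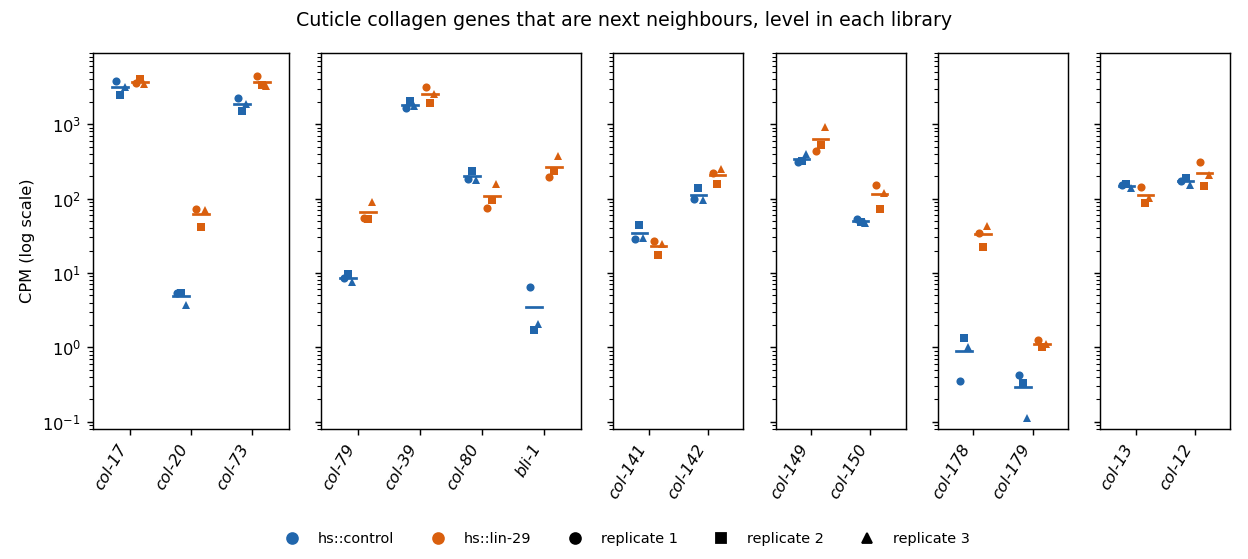
CPM on a log scale (y axis) in each library for cuticle collagen genes that are next neighbours, 1 panel per run, with symbols for replicates 1 to 3 and a bar at each strain's mean of 3. In the first panel col-17 and col-73 stand above 1000 CPM in both strains while col-20 goes from 4.86 to 61.5 CPM, and in the second col-39 and col-80 stand between col-79 and bli-1, which both rose.

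Overlapping genes could lend reads where counting ignores strand, a setting not given in the sources used here. Overlap can also remove reads: 10.7% to 11.3% of the reads fitted more than 1 gene and were assigned to none. Of the 140 genes, 49 overlap a protein-coding gene. Of the 6 highest in hs::control these include col-125, col-107, col-90 and col-39, but not col-17 or col-73. The levels and order given above are uncertain to that extent. Of the 21 risen genes, 8 overlap another annotated gene, in each case a protein-coding one. Of these 8 partners 4 were tested, mek-2 beside col-48, ncr-2 beside col-91, lron-14 beside col-122 and C34F6.11 beside col-179, and none was called (log2 fold changes -0.14 to 0.32). For the other 13 risen genes, col-60, col-77 and col-73 among them, no overlap is listed. One of them, col-182, was not found in the annotation, so its overlaps could not be looked up.

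The wider collagen pathway was set beside these genes. Of 19 tested collagen genes named for a body shape, 5 rose and none fell, beside 2.46% higher and 4.14% lower over all genes tested. Their median log2 fold change was 0.01. bli-6 rose 593-fold, from 1.34 ± 0.981 CPM, rol-1 88.4-fold and lon-3, a body-length collagen gene, 2.23-fold, from 350 ± 42.1 to 782 ± 193 CPM. Without hs::control replicate 1 the log2 fold changes of bli-1, bli-6 and rol-1 went from 6.35, 9.21 and 6.47 to 7.15, 9.88 and 7.18. Over all genes tested 6.60% were called, so 1 call in a list of 14 is not read as a result about that list. Among 14 tested genes for hydroxylating, folding, cutting and cross-linking collagens, tsp-15, which works in tyrosine cross-linking, was the only call and fell 1.40-fold (adjusted p 0.04796). That call was lost without hs::control replicates 2 or 3 or hs::lin-29 replicates 2 or 3 (range over all alternatives 0.0188 to 0.169). It was also lost with limma-voom, the replicate block and some other scalings and filters. The median over the 14 was 0.04. The 4 collagen genes outside the cuticle, the basement membrane genes emb-9 and let-2 with cle-1 and mec-5, were all tested and not called, with a median of 0.09. The sqt-3 and dpy-10 collagens and the protease gene nas-6 are listed at 0 in every library, so no level is read from them.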

How the data were processed

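RNA from whole larvae was sequenced in 6 libraries, 3 for each strain. The authors deposited 1 table of whole-number counts of reads per gene for each library. The submitters' processing notes name STAR 2.5.2b, HTSeq 0.6.1p1, DESeq2 1.12.3 and the build ce10, with no roles; no source used here gives the annotation or whether counting used strand. Rows that name no gene held 39.7% to 41.8% of the reads and were left out. Genes passing filterByExpr were tested with edgeR 4.0.16 (TMM, robust quasi-likelihood) in R 4.3.3 over all 13045 genes, hs::lin-29 against hs::control, with Benjamini-Hochberg adjustment at 0.05. The fit was tested on simulated data. Alternatives used DESeq2 1.42.0, limma 3.58.1, other scalings and filters, a replicate block and each library left out. Transcript lengths, overlaps and neighbours came from the WBcel235 annotation, a build other than ce10, so no coordinates are given. Same-numbered replicates did not vary together (r 0.011, -0.361 and 0.238) and are not taken as pairs. Genes were named by rule: all that rose, the 6 highest in hs::control, the 6 narrowest intervals among the held, the 6 largest log2 changes at 5 CPM or more among the undecided, those nearest the threshold, and genes with a known stage. col-141 is named as a neighbour. Other members outside these rules, such as col-41, col-45, col-58, col-70, col-76 and col-93, are named where a class or group is listed. These members and the genes outside the set were named after their values were seen. The members and all gene lists were chosen with earlier results of these data known.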

Additional observations from a re-analysis of the deposited data

How the results depend on the processing

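In all 14 alternatives were run. The rises of 11 col genes were called under every one, 3 more (col-101, col-110 and col-176) were lost only with no filter on low counts, and 7 were lost without at least 1 library. All of these 7 but col-73 were also lost with another scaling or filter. The number of col genes called higher ran from 14 to 25 with a library left out and from 16 to 30 otherwise, and the number held from 45 to 52. The number called lower, 0 in the main test, was 3 with DESeq2, 1 with the replicate block and 0 to 4 with a library left out. Over all genes the replicate block gave 206 higher and 350 lower, and leaving out a library gave 135 to 327 higher and 324 to 567 lower. Under the block 4 calls on col genes were lost (col-91, col-122, col-142 and col-179) and 4 were gained (col-69, col-133 and col-149 higher, col-156 lower). The sign turned for 4 genes with values near 0. Over left-out libraries col-125 ran from -0.1625 to 0.0181 on the log2 scale, col-153 from -0.0917 to 0.0392, col-10 from -0.0691 to 0.0932 and col-99 from -0.0046 to 0.2553; with library totals col-10 was at -0.0147. The cause was not tested. For 54 named genes, 658 of 752 values kept direction and side of the threshold, 61 lost the call, 27 gained one and 6 turned sign. The level classes kept their counts within 1.5 times with coding lengths, library totals or an hs::control library left out. Depth limits genes below 1 CPM, where an hs::control library can hold 3 reads.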
